A study of Homo sapiens with 4 samples.

Results

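Mycophenolic acid (MPA) was compared with its solvent in U87MG, an established human glioblastoma cell line from ATCC. The comparison rests on 2 of the 4 arrays of the study, 1 from cells given DMSO and 1 from cells given 10 µM MPA, both after 24 h in culture medium with serum. The other arrays came from cells given 100 µM guanosine and from cells given MPA and guanosine together, and their values are printed beside the comparison. Biotin-labelled target made from total RNA was read on Affymetrix PrimeView arrays, whose probes lie near the 3′ end of each mRNA. Each gene was taken from the brightest of its probe sets that carried 1 gene symbol, and 10951 of 18132 such genes reached a floor on dim signal, set at 63.0, on the MPA or the control array. Every difference is the log2 signal of the MPA array minus that of the control array. With 1 array for each condition there is no spread between cultures, no test and no p-value, and U87MG is a single line, so the values describe these arrays. The label of the control array alone carries a number, 2, whose meaning is not given.

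MPA blocks IMP dehydrogenase, the enzyme that turns IMP into the precursor of GMP, so that cells must take guanine nucleotides from salvage. GTP is needed for RNA and DNA synthesis, for tubulin assembly, for nuclear transport and for signalling GTPases, and guanine nucleotide shortage is known to disturb the nucleolus and to raise p53. Guanosine can be salvaged to GMP without IMP dehydrogenase.

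The arrays were brightest, among the cell type markers listed, for those of mesenchymal glioma. VIM, an intermediate filament of mesenchymal cells, had a signal of 19783 on the control array and 18322 on the MPA array, and CD44, FN1 and CAV1 were well above the floor. SOX2, PROM1, S100B, AQP4, MBP, PTPRC, PECAM1 and CDH1, markers of neural stem cells, astrocytes, oligodendrocytes, leukocytes, endothelium and epithelium, were below it on all 4 arrays. Other markers of these kinds did reach the floor on the MPA or the control array. They were 6 of 18 neural stem and proneural, 10 of 14 astrocyte and 10 of 15 neuron and oligodendrocyte markers. Among endothelial and pericyte markers 7 of 13 did so, among epithelial markers 6 of 11, and among mesenchymal glioma markers 23 of 23. Of all genes 10951 of 18132 did so. The summed control signal was 137959 for the mesenchymal glioma markers and 7524 for the astrocyte markers. It was 7489 for neuron and oligodendrocyte markers and 6425.5 for neural stem and proneural markers. CDKN2A and MTAP, reported as deleted in U87MG, were below the floor everywhere. Of 14 leukocyte and microglia markers 4 reached the floor, with a summed signal of 1502 on the control array, 2189 on the MPA array, 1625 with guanosine and 1587 with both compounds. Most of that sum was CD68, a lysosomal protein, with 1200, 1871, 1342 and 1325, while CD14 and AIF1 stayed below the floor. The part of such cells in the results was not tested.

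The MPA array stood apart from the other 3. It held the highest or the lowest signal of the 4 arrays for 83% of the genes compared (highest for 41.1%, lowest for 41.9%), against 42.7% for the control array, 34.1% for guanosine and 39.7% for both compounds. Over all genes compared, the median difference was 0.00 and the middle 95% lay between -0.88 and 0.85. Signal was 2-fold higher or more with MPA for 189 genes (1.73% of those compared) and 2-fold lower or more for 156 (1.42%). A 1.5-fold limit gave 592 higher (5.41%) and 824 lower (7.52%). The list counts below are to be set beside these shares, and beside 50.3% of genes higher and 49.7% lower by any amount. The MPA array read lower for all 24 probe sets of the poly-A controls, bacterial RNAs that are usually spiked into a sample ahead of target synthesis, with a median of -0.24. Centring the arrays on them moved the median of all genes to 0.24 and the split to 344 higher and 57 lower. Several of the list medians below zero that are given here then turned positive. They were those of the histone genes, the snRNP and RBM proteins, the translation factors, the ribosomal proteins and the cholesterol enzymes. So did those of the kinesins, the formins, the ATF4-linked genes, the hypoxia and glycolysis genes and the proteasome genes. The other medians below zero kept their sign. The directions given are relative to the median of all genes.

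With the guanosine array as baseline, 147 of the 189 higher genes and 102 of the 156 lower genes were also past 2-fold. The other 3 arrays spanned a median of 0.21 on the log2 scale for the higher genes, 0.75 at most, and 0.19 for the lower ones, 0.85 at most, so the MPA array lay outside their range in every case by the choice of genes. Another probe set above the floor existed for 91 of the higher genes, and in 90 of them every such probe set was higher too, but the median of the others was past 2-fold for only 44. Among the lower genes 89 had another probe set, in 82 all were lower, and for 45 the median of the others was past 2-fold. Where the median over all probe sets of a gene, dim ones included, takes a named gene out of its 1.5-fold or 2-fold range by a wide margin, that median is given beside it. For 45 of the higher genes and 21 of the lower genes the dimmer array was below the floor, so their measured size is uncertain.

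**Figure D1:**
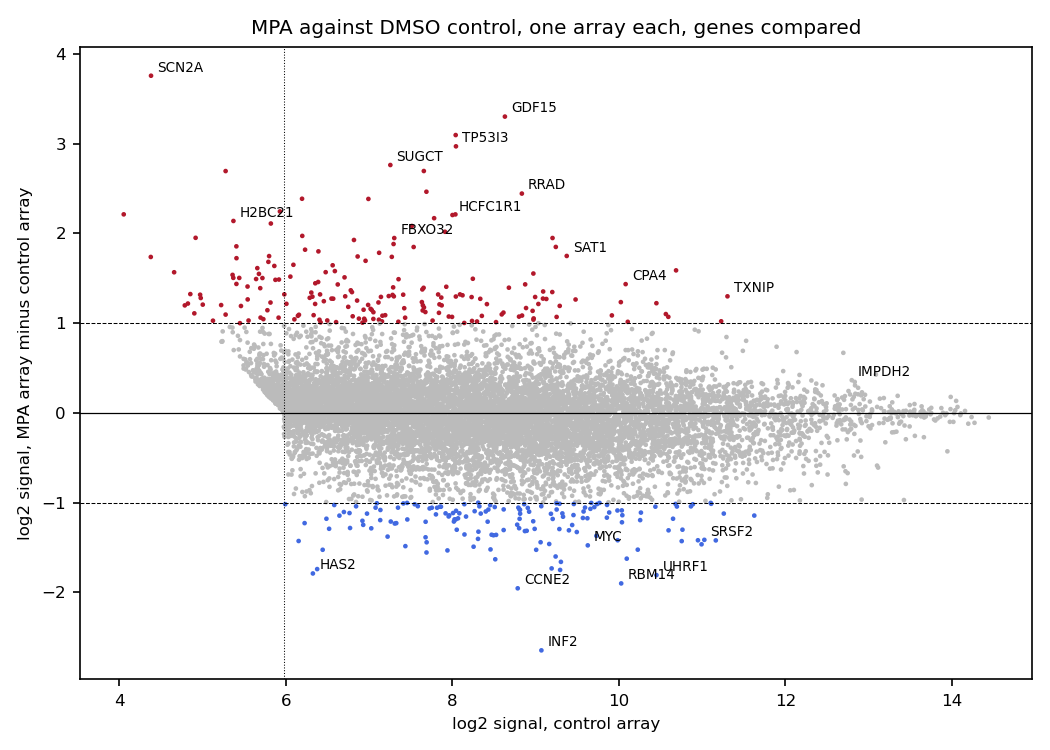
Log2 difference between the MPA and the control array (vertical axis) against log2 signal of the control array (horizontal axis), 1 point per gene compared. The 189 genes at least 2-fold higher are red, the 156 at least 2-fold lower are blue, the dashed lines mark 2-fold and the dotted line marks the floor. The widest differences, such as SCN2A, GDF15 and INF2, stand alone, and IMPDH2 lies among the brightest genes at 0.36.

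Promoter sequences are shown for 8 genes, each as an example of a promoter with a motif match. They were taken from RefSeq on GRCh38.p14 and run from 250 bases before to 50 bases after the annotated start. Capitals mark the match to a motif. The first set holds PTCHD4 (chr6:48111148-48111447, minus strand), ACTA2 (chr10:88991288-88991587, minus strand) and GDF15 (chr19:18385908-18386207, plus strand), higher on the MPA array, with a match to the p53 response element. That element was searched as 2 half-sites of 10 bases with at most 13 bases between them and at most 3 mismatches. The match had 0 mismatches in PTCHD4, 2 in ACTA2 and 3 in GDF15. ACTA2 lies next to FAS, which was also higher, and which of these neighbours the match serves was not tested. PTCHD4 differed by 2.70 between the MPA and the control array, or 2.09 over all its probe sets.
PTCHD4: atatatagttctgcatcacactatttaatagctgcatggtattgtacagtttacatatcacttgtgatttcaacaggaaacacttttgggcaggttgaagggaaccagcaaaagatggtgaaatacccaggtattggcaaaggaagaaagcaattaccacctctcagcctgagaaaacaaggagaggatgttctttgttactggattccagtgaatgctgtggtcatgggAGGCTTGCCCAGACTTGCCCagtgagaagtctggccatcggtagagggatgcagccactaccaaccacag
ACTA2: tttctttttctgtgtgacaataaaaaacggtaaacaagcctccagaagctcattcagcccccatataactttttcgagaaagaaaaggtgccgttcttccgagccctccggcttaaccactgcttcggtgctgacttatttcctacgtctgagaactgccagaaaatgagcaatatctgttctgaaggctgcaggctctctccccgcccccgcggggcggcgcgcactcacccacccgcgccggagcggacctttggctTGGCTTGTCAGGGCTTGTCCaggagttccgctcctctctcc
GDF15: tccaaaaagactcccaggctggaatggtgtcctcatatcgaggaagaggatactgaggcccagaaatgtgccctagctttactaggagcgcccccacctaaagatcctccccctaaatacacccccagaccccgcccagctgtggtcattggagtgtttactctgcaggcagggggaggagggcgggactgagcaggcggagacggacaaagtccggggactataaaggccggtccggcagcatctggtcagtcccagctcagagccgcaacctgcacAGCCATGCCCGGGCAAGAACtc
The next set holds replication and mitosis genes that were lower. GINS2 (chr16:85688905-85689204, minus strand), a subunit of the replicative helicase, and CDC6 (chr17:40287629-40287928, plus strand), which loads that helicase, carry an E2F motif. BUB1B (chr15:40160819-40161118, plus strand) and BUB1 (chr2:110678014-110678313, minus strand), kinases of the spindle checkpoint, carry the CHR motif of late cell cycle genes.
GINS2: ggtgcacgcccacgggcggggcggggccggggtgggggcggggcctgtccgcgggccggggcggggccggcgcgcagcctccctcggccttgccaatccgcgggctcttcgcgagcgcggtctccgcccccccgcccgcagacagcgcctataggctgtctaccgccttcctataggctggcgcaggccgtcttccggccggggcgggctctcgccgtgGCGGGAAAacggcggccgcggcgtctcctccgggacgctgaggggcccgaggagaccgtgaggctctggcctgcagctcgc
CDC6: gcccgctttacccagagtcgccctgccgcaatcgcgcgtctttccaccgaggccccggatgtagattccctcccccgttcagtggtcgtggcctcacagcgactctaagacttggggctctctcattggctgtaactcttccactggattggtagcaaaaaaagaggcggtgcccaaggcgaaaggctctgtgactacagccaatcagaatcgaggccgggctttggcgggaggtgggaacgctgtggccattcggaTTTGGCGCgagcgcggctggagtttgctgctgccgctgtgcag
BUB1B: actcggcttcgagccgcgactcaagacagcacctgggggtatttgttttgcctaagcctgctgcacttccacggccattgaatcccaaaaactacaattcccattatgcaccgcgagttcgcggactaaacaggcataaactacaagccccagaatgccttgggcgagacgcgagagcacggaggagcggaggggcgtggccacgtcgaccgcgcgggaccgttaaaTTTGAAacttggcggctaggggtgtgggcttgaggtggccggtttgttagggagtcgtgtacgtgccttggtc
BUB1: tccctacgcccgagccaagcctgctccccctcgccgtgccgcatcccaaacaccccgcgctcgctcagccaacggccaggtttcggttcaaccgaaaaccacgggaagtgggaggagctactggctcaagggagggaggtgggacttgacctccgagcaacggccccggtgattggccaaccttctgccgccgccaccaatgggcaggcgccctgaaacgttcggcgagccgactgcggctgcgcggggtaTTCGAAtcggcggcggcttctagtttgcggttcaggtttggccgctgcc
BYSL (chr6:41921249-41921548, plus strand), a factor of small ribosomal subunit assembly, carries an E-box, the motif that MYC and its partners are known to bind. Only 26 of 75 promoters of rRNA processing genes held an E-box, so BYSL does not stand for that list.
BYSL: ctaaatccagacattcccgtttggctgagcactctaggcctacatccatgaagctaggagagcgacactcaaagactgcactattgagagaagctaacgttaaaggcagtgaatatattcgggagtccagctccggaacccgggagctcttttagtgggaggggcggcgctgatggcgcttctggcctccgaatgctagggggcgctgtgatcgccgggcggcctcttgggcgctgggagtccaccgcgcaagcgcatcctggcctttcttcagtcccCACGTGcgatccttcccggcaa

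The genes of highest difference were a mix of known p53-responsive genes and genes of other roles. Signals are given from here on in the order control, MPA, guanosine, both compounds. GDF15, a stress-induced secreted factor, had 396.8, 3917, 350.5 and 362.8, a 9.87-fold difference between MPA and control. GDF5, another member of the TGF-beta superfamily that is known from joint formation, had 202.1, 1310, 146.5 and 153.5, or 6.48-fold. In both, the MPA array alone was high and the other 3 were close together. The 46 ligands, receptors and inhibitors of the TGF-beta and BMP pathways, GDF15 and GDF5 included, had a median of 0.08. Of them 6, these 2 genes among them, were at least 1.5-fold higher and 1 was lower. The co-receptor TGFBR3 stood at 0.92, the BMP-responsive inhibitor of differentiation ID2 at 0.88, and the ubiquitin ligase SMURF2 at -0.81.

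SUGCT, a mitochondrial enzyme of glutarate metabolism, had 152.9, 1038, 155.6 and 163.8, which is 6.79-fold higher with MPA. HCFC1R1, a binding partner of the transcriptional regulator HCFC1, had 256.5, 1183, 275.5 and 276.1, and its other 2 probe sets differed by 1.96 and 2.09. ORAI3, a subunit of store-operated calcium channels, had 220.2, 991.1, 265.0 and 278.8. For these 3 genes the MPA array was again the single high one, but the median over all probe sets of SUGCT was 0.07. SCN2A, a voltage-gated sodium channel subunit, had 20.9, 282.3, 25.6 and 29.9, with 3 arrays below the floor, and was at least 4.48-fold higher. Across 56 voltage-gated and TRP channel genes that were compared, 48 were higher on the MPA array, where 50.3% of all genes were, yet only 5 were so by 1.5-fold and the median was 0.15. Those 5 were SCN2A, the inward rectifier KCNJ2 (1.65), the cold-sensing channel TRPM8 (1.23), the potassium channel subunit KCNE4 (0.90) and TRPV2 (0.68). Over all probe sets of each gene KCNJ2 came to 0.80, TRPM8 to 0.47, KCNE4 to 0.41 and TRPV2 to 0.39.

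Among the p53-responsive genes of cell cycle arrest and feedback, 11 of 17 were at least 1.5-fold higher and 1 was lower, with a median of 0.91. CDKN1A, the inhibitor of cyclin-dependent kinases, had 1649, 4961, 1373 and 1412. PPM1D, a phosphatase that shuts p53 down, had 185.6, 668.9, 186.4 and 169.1, and MDM2, the ligase that degrades p53, had 204.7, 446.2, 224.0 and 223.4. All 3 were high on the MPA array only. MDM4, the partner of MDM2 in p53 inhibition, went the other way at -0.59. PLK2, a stress-responsive kinase, led the group at 2.21 with 262.8, 1218, 193.3 and 191.9, and its other probe sets differed by 2.08 and 2.15.

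The metabolic and antioxidant genes linked to p53 differed as much, with 11 of 16 at least 1.5-fold higher, 0 lower and a median of 1.06. TP53I3, an oxidoreductase, had 264.0, 2071, 229.0 and 240.1. SESN1, a sestrin that restrains mTORC1, had 206.4, 1140, 233.4 and 226.2, and its other probe set gave the same difference of 2.47. SPATA18, which takes part in mitochondrial quality control, was at least 4.59-fold higher, with its control signal at 61.0. LPIN1 at -0.53 and ALDH1A3 at -0.27 were the only lower members.

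Ligands and receptors of the death receptor family were mixed, with 5 of 15 at least 1.5-fold higher and 1 lower. TNFSF9, a ligand that co-stimulates T cells, had 127.4, 665.4, 128.0 and 132.9, so that the MPA array was 5.22-fold above the control. The death receptor FAS had 303.8, 856.5, 305.3 and 291.0, and its difference was 2.82-fold. TNFRSF19, by contrast, stood at -0.94, but at -0.05 over all its probe sets. In the list of the BCL2 family and mitochondrial apoptosis 3 of 20 members were 1.5-fold higher and 2 lower. These counts are 15% and 10%, against 5.41% and 7.52% of all genes. The higher ones were the death-promoting BBC3 (1.41) and BAX (0.88) and the nuclease AEN (0.86), and the lower ones were BCL2L1 and the apoptosis inhibitor BIRC2 (-0.71). BCL2L1, which encodes the survival protein BCL-xL, stood at -0.99 with its MPA signal below the floor, its other probe set at 0.32 and the median over all of them at 0.09. Nucleotide excision and bypass repair had 3 members above 2-fold, the damage sensors DDB2 (1.85) and XPC (1.30) and the bypass polymerase POLH (1.24, or 0.62 over all its probe sets), while the ligase RAD18 stood at -1.12 and the other members were within 1.5-fold.

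**Figure D2:**
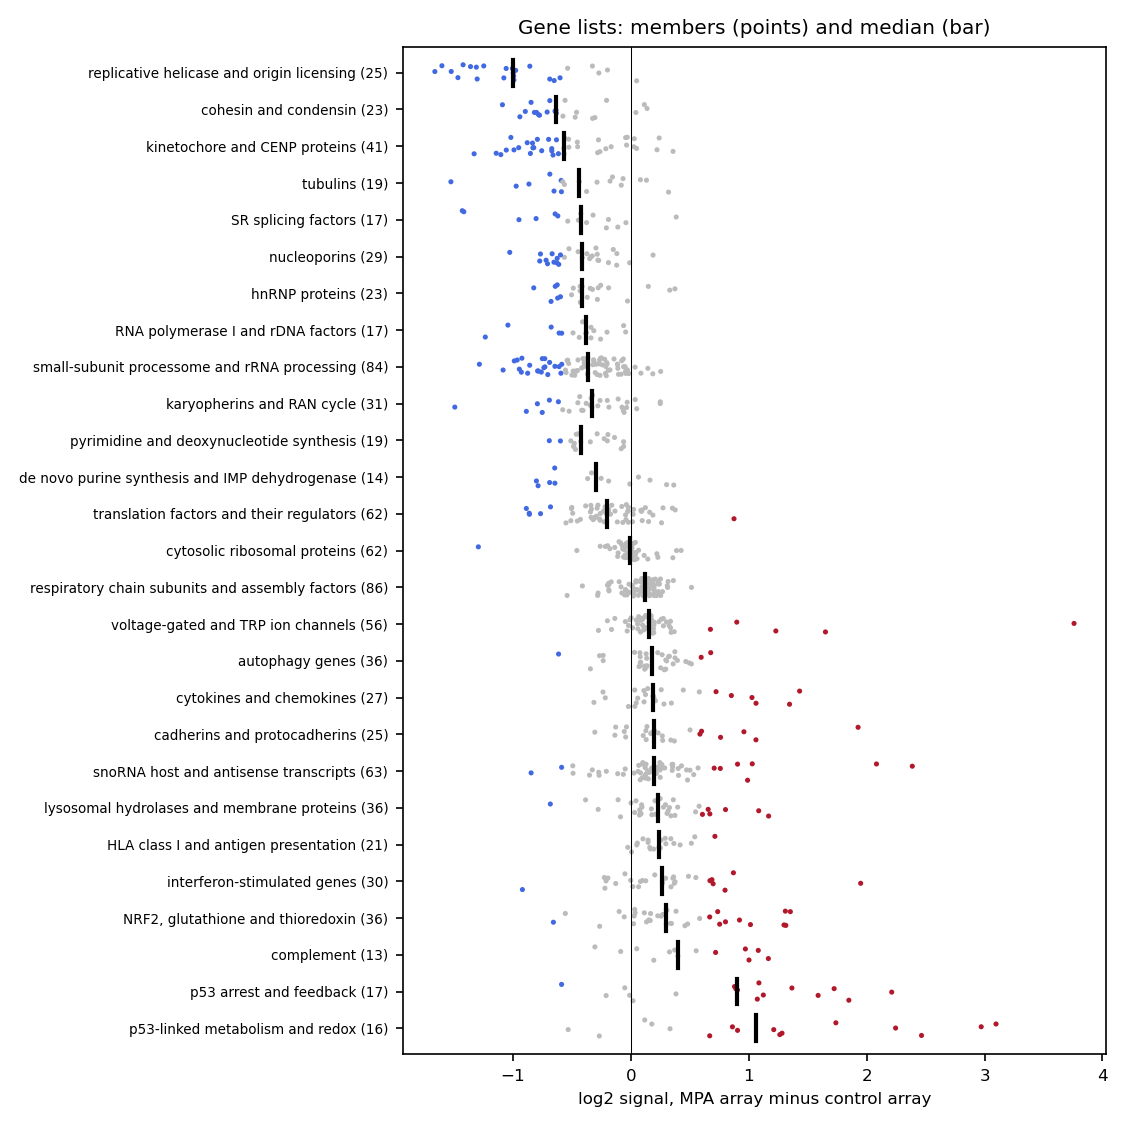
Log2 difference between the MPA and the control array for the members of gene lists, 1 point per gene compared, with the number of members in brackets and a black bar at the list's median. Points at least 1.5-fold higher are red and those at least 1.5-fold lower are blue, and medians run from -1.0 for helicase and licensing genes to 1.06 for p53-linked metabolism.

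The loading and activation of the replicative helicase held the lowest median among the lists plotted, -1.0, with 20 of 25 members at least 1.5-fold lower and 0 higher. GINS2 had 632.5, 200.01, 538.1 and 571.1, and CDC6 had 1740, 705.4, 1522 and 1566. MCM6 and MCM4, subunits of the helicase ring, had 2039, 738.6, 1981 and 1830, and 2296, 857.1, 2166 and 2131. The MPA array was the single low array in each of them. Some members hardly differed, among them the origin subunits ORC2 (-0.20) and ORC4 (0.05), and MCM5 stood at -0.33. At the fork, 17 of 31 genes were 1.5-fold lower, led by WDHD1 (-1.44, or -0.87 over all its probe sets) and the flap nuclease FEN1 (-1.42), while the smallest subunits of polymerases delta and epsilon, POLD4 (0.70) and POLE4 (0.53), were higher. POLD4 had 1413, 2295, 1620 and 1653, and both of its other probe sets were higher as well, at 0.58 and 0.61.

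The regulators of S phase entry had 10 of 30 members at least 1.5-fold lower, with a median of -0.51. The cyclin gene CCNE2 had 441.5, 113.8, 413.4 and 428.9, and the phosphatase gene CDC25A had 366.2, 118.1, 313.2 and 301.6. Chromosome segregation genes were lower too, with 20 of 41 kinetochore genes and 13 of 23 cohesin and condensin genes below 1.5-fold and 0 above it in either list. BUB1B had 721.9, 287.5, 572.7 and 567.6 and BUB1 had 1055, 478.3, 856.8 and 866.1, so that the arrays with guanosine lay between control and MPA. Of 34 kinesin motors, 10 were lower by 1.5-fold, led by the mitotic motors KIF23 (-1.17) and KIFC1 (-1.01), and the median of the family was -0.08. In homologous recombination and Fanconi repair 13 of 24 genes were lower, with EXO1 at -1.21 and RAD51B at -1.25, the latter at -0.11 over all its probe sets. UHRF1, which takes part in the maintenance of DNA methylation after replication, had 1401, 399.9, 1202 and 1245, and its other probe set differed by -1.82.

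Histone genes did not move as one group. Among 20 of them 2 were 1.5-fold higher (10%, against 5.41% of all genes) and 3 were 1.5-fold lower (15%, against 7.52%). The median was -0.17, which became 0.02 against the guanosine array. H2BC21 had 41.4, 182.5, 50.7 and 54.8 and was at least 2.90-fold higher, since only the MPA array was above the floor, but the median over all its probe sets was 0.04. H2BC12 had 1729, 641.8, 1105 and 1098, and H4C3 had 7730, 3956, 5436 and 5592, with both guanosine arrays between control and MPA. Over all its probe sets H2BC12 came to -0.63. SLBP, which binds the stem-loop of replication-dependent histone mRNAs and was chosen after its values were seen, had 1867, 906.3, 1762 and 1798. Most histone mRNAs lack a poly-A tail, and how the labelling captured them is not given in the sources used here.

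The nucleolar lists were lower by smaller amounts. All 17 RNA polymerase I subunits and factors were below the control, where 49.7% of all genes were, with a median of -0.38 and 5 of them at least 1.5-fold lower. POLR1E, a subunit of the polymerase, had 158.6, 67.5, 148.6 and 148.6, and its other probe sets differed by -1.08 and -0.93. In processing of ribosomal RNA 79 of 84 genes were lower, 22 by 1.5-fold, with a median of -0.37. BYSL had 140.8, 66.5, 123.8 and 119.5, and NOLC1, a nucleolar phosphoprotein, had 2831, 1452, 2822 and 2791, in both cases with the MPA array alone low, although BYSL came to -0.21 over all its probe sets. The most abundant nucleolar proteins differed less, with NPM1 at -0.26 (12042, 10083, 11728 and 11552) and NCL at -0.48 (7254, 5219, 7188 and 7002). The 62 cytosolic ribosomal protein genes were level, at a median of -0.01 with 1 of them 1.5-fold lower, RPL27A, whose probe set was below the floor with MPA. Among 62 translation factors and regulators the median was -0.20, and it turned to 0.04 when the arrays were centred on the poly-A controls. EIF1AX, a start-site scanning factor, stood at -0.89, and PDCD4, an inhibitor of the helicase EIF4A, at 0.88.

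The families of mRNA splicing and RNA-binding proteins had medians below zero, by unequal amounts. Among SR proteins, which define exons, 16 of 17 were lower, 6 of them past 1.5-fold, and their median was -0.43. SRSF2 had 2087, 782.5, 2094 and 1979, and its other 2 probe sets differed by -1.24 and -0.22. SRSF7 had 3524, 1827, 3545 and 3617, and SRSF5, the 1 higher member, had 2034, 2657, 2341 and 2396, with all of its other probe sets between 0.10 and 0.32. For SRSF2 and SRSF7 the MPA array was the only low one, and for SRSF5 it was the highest. The hnRNP proteins, which package nascent RNA, had a median of -0.41 with 6 of 23 at least 1.5-fold lower, led by HNRNPAB (-0.82). SYNCRIP, an RNA-binding protein of the hnRNP kind, had 1015, 379.2, 1103 and 1011, but its 6 other probe sets ranged from -1.49 to 0.20. Core snRNP proteins were closer to all genes, with 4 of 53 past 1.5-fold, all lower (7.55%, against 7.52% of all genes). Their median of -0.15 turned to 0.09 with poly-A centring. RBM14, a coactivator of nuclear bodies called paraspeckles, had 1045, 279.7, 1040 and 1131. Its family of RBM proteins, by contrast, had a median of -0.09, which turned to 0.15 with poly-A centring.

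Of 29 nuclear pore genes 28 were lower, 11 of them past 1.5-fold, and their median was -0.41. NUP85, of the pore's outer ring, had 928.5, 456.03, 828.9 and 879.8, and NUP153, of the nuclear basket, had 516.3, 302.3, 509.9 and 503.2. KPNB1, the main import receptor, had 6778, 3915, 6856 and 6812, and its 4 other probe sets lay between -1.10 and -0.93. The MPA array was the low one in all 3 genes. RCC1, the exchange factor that charges RAN with GTP, had 305.7, 108.7, 260.1 and 257.7, while its second probe set gave -0.34 and the median of both was -0.91. Of the 31 genes of nuclear transport receptors and the RAN cycle, 6 were 1.5-fold lower and 0 higher, and RAN stood at -0.33.

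The nucleotide pathways themselves differed modestly. IMPDH2, the IMP dehydrogenase isoform of proliferating cells, had 7120, 9168, 4067 and 4228, so that MPA was above control and both guanosine arrays were below it. All 5 of its other probe sets were higher with MPA, between 0.39 and 0.47. IMPDH1, the other isoform, stood at -0.37, with other probe sets from -0.16 to 0.17. GMPS, which makes GMP from the product of IMP dehydrogenase, had 2689, 1722, 2423 and 2280. Earlier in the purine pathway, GART had 625.8, 359.4, 644.4 and 646.0 and PAICS had 1915, 1111, 1768 and 1851. Within this list 5 of 14 genes were 1.5-fold lower and 0 higher. HPRT1, the salvage enzyme for guanine, stood at -0.36, and the 31 genes of purine salvage and breakdown had a median of 0.00. All 19 genes of pyrimidine and deoxynucleotide synthesis were lower, but only 2 by 1.5-fold, UCK2 (-0.69) and CTPS2 (-0.60).

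Tubulin genes had a median of -0.44, with 7 of 19 at least 1.5-fold lower and 0 higher. TUBB had 1199, 416.7, 1291 and 1315, and its other 5 probe sets lay between -1.62 and -1.24. TUBB6 had 10993, 5606, 10394 and 10204, and TUBA4A had 4267, 2346, 4140 and 3923. These genes encode subunits of the GTP-binding tubulin dimer, and the MPA array was the low one in each. Related tubulin genes share sequence, and how far their probes separate them is not given in the sources used here. Only 3 of the 19 were higher, among them 2 genes of the complex that nucleates microtubules, TUBGCP6, the highest at 0.32, and TUBGCP4 at 0.08.

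Signalling genes outside the p53 and replication groups differed singly rather than as families. HBEGF, a ligand of the EGF receptor, had 628.3, 186.7, 468.1 and 541.8, while the ligands TGFA and NRG1 were higher at 0.81 and 0.85, but over all their probe sets at 0.30 and 0.21. ERK feedback inhibitors were lower in part: SPRY2 had 1223, 534.2, 1407 and 1455, and DUSP6, a phosphatase of ERK, had 1695, 931.8, 2343 and 2410. For DUSP6 the guanosine arrays lay above the control and the MPA array below it. ERRFI1, an inhibitor of the EGF receptor, stood at -0.74, whereas DUSP14 (0.82) and IER5 (0.74) were higher. PTPRR, a phosphatase that acts on ERK but is not in the list of ERK feedback genes, had 73.5, 288.4, 93.6 and 100.7. In the list of ERK feedback 3 of 27 genes were 1.5-fold higher (11.1%, against 5.41% of all genes) and 4 lower (14.8%, against 7.52%).

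Immediate early factors split likewise, with 3 of 24 higher (12.5%) and 5 lower (20.8%) by 1.5-fold, against 5.41% and 7.52% of all genes. MYC had 791.0, 284.2, 827.0 and 779.4, with the MPA array alone low. Its antagonists MXI1 (0.65), MXD4 (0.56) and MXD1 (0.48) were above the control, although MXI1, at 519.1, 816.9, 882.7 and 843.7, was as high on the arrays with guanosine. FOSL1, an AP-1 subunit, had 694.7, 292.0, 575.3 and 588.2, and JUN stood at -0.67. ATF3 (1.02), FOSL2 (0.98) and EGR1 (0.75) were higher, but over all probe sets ATF3 came to -0.01, FOSL2 to 0.56 and EGR1 to 0.38.

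The actin, small GTPase and adhesion genes gave several of the widest single differences. INF2, a formin that builds and severs actin filaments, was the lowest gene of all, with 537.6, 85.8, 670.1 and 665.8, yet its other probe sets above the floor ranged only from -1.02 to -0.05, and the median over all was -0.20. CYFIP2, a subunit of the actin-regulating WAVE complex that is known to respond to p53, had 154.8, 516.8, 168.9 and 165.9. ACTA2, smooth muscle actin, had 502.9, 1476, 581.5 and 582.9, with a median of 0.26 over all its probe sets. RRAD, a GTPase that inhibits calcium channels, had 456.9, 2488, 436.2 and 465.7, and RAB23, a GTPase of hedgehog signalling and cilia, had 514.8, 178.7, 570.6 and 580.3. Both differences were of 1 array against 3, and as families the Ras-like GTPases (median 0.03) and the formins and nucleators (-0.09) stayed near all genes. CDH23, an atypical cadherin, had 113.0, 429.7, 120.7 and 123.2, but a median of 0.27 over all its probe sets, and 6 of 25 cadherins were 1.5-fold higher with 0 lower.

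At the cell surface and in the matrix, HAS2, a hyaluronan synthase, had 80.2, 23.2, 73.6 and 82.6 and was at least 1.27-fold lower, with a median of -0.28 over all its probe sets. F3, tissue factor, which starts coagulation, had 534.1, 196.6, 961.8 and 934.7, and its median over all probe sets was -0.68. The receptor PLAUR (-0.64), the coagulation inhibitor TFPI (-0.52) and the protease PLAU (-0.46) were lower by less. F3 was lowest with MPA and highest with guanosine, a spread in which the control lay between. The protease inhibitors TIMP3 (79.9, 196.2, 95.3 and 90.6) and TIMP4 (234.4, 538.1, 223.8 and 233.7) were higher with MPA only, and ADAM8, a sheddase, stood at -0.98. The guidance ligand EFNB2 had 2454, 1127, 2656 and 2649, and DVL1, the Wnt signal transducer, had 1609, 709.9, 1420 and 1489. DKK1, a Wnt inhibitor, stood at 0.83.

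Complement genes were higher as a small group, with 5 of 13 at least 1.5-fold higher, 0 lower and a median of 0.40. C1S, a protease of the classical pathway, had 327.5, 693.0, 328.3 and 314.8, and its partner C1R had 526.5, 866.9, 533.0 and 575.4. C3, the central component, had 282.9, 566.9, 292.6 and 323.1. The MPA array stood above the other 3 in each. The surface regulators CD46 (0.05) and CD59 (-0.09) hardly differed. Of 27 cytokines and chemokines 23 were higher, where 50.3% of all genes were, with a median of 0.19. By 1.5-fold 6 were higher (22.2%, against 5.41% of all genes) and 0 lower. CCL26, an eosinophil chemokine, had 98.7, 266.3, 87.2 and 91.5, TSLP had 111.1, 282.5, 122.9 and 145.0, and CXCL8 had 428.1, 706.8, 395.2 and 415.6. TSLP came to 0.08 over all its probe sets.

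Antigen presentation genes were higher in 20 of 21 cases, where 50.3% of all genes were. Only HLA-E passed 1.5-fold (4.76% of the list, against 5.41% of all genes). HLA-E had 523.0, 857.6, 485.1 and 518.5 and all other probe sets between 0.50 and 0.86. The median of these genes was 0.24, and the shared light chain B2M stood at -0.03. The 30 interferon-stimulated genes were centred on 0.27, with 6 past 1.5-fold upward and 1 downward. TRIM22, an antiviral ligase that p53 is also known to induce, led them with 589.9, 2278, 593.9 and 599.7, and all 5 of its other probe sets were higher, from 1.51 to 2.38. IFI44, an interferon-induced gene, had 778.3, 411.7, 749.7 and 753.6, the opposite direction, with its other probe sets between -1.08 and -0.81.

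Redox genes were mostly higher. Of 36 genes of glutathione, thioredoxin and NRF2 biology 31 were higher, where 50.3% of all genes were, with a median of 0.30. By 1.5-fold 10 were higher (27.8%, against 5.41% of all genes). TXNIP, an inhibitor of thioredoxin and of glucose uptake, had 2530, 6228, 1827 and 1718, and its 4 other probe sets lay between 1.23 and 1.47. AKR1B10, an aldo-keto reductase, had 545.6, 1394, 478.5 and 496.1, and the quinone reductase NQO1 had 3808, 6348, 3894 and 3954. All 3 were highest with MPA. Other known NRF2 targets lay below the control, GCLM at -0.66 and HMOX1 at -0.55. ARRDC4, an arrestin-domain gene related to TXNIP and chosen after its values were seen, had 524.3, 1216, 405.0 and 402.2. Antioxidant response elements (TGACNNNGC) were found in 15.5% of the promoters of 2-fold higher genes and in 14.9% of all promoters, and CACGTG E-boxes in 6.45% against 10.4%.

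Polyamine enzymes differed in both directions. SAT1, the acetylase that sends polyamines to export and breakdown, had 663.9, 2232, 636.6 and 678.0, with its other probe set at 1.47. AMD1, the decarboxylase that supplies polyamine synthesis, had 1897, 936.1, 1985 and 1950, and its 5 other probe sets were lower still, between -1.83 and -1.35. ODC1, the first enzyme of synthesis, had 1530, 2175, 1627 and 1625. All 3 were picked once their values had been seen.

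Lists of energy metabolism and protein degradation differed among themselves. By any amount, 50.3% of all genes were higher. Respiratory chain subunits and assembly factors were higher for 65 of 86 genes, their median was 0.12, and 0 passed 1.5-fold in either direction. Hypoxia and glycolysis genes, 16 higher and 19 lower, and proteasome genes, 16 higher and 28 lower, both had a median of -0.04. PPARGC1A, the coactivator of mitochondrial biogenesis, had 75.2, 265.4, 71.1 and 70.1, and PPARA, a nuclear receptor of fatty acid oxidation, had 157.1, 579.1, 196.3 and 201.9. Both were high with MPA only, although over all probe sets PPARA came to 0.37 and PPARGC1A to 0.98. NR2C2, another nuclear receptor, had 849.7, 328.6, 867.2 and 878.4, with a median of -0.80 over all its probe sets. Among cholesterol enzymes 4 of 22 were 1.5-fold lower (18.2%, against 7.52% of all genes) and 1 higher (4.55%, against 5.41%). HMGCS1 stood at -0.94 and INSIG1 at -0.72, and the median of -0.17 turned to 0.07 with poly-A centring. Lysosomal genes were higher in 31 of 36 cases, 6 by 1.5-fold, with a median of 0.23. NEU1, a lysosomal sialidase, had 473.2, 1064, 396.9 and 380.1, and the membrane protein GPNMB had 457.7, 971.1, 476.1 and 473.0. Among autophagy genes 31 of 36 were higher, at a median of 0.18, and SQSTM1, the autophagy receptor p62, had 4498, 7197, 5238 and 5221. FBXO32, the muscle atrophy F-box protein, had 158.0, 610.0, 194.0 and 169.8. FOXO1 (1.04) and IRS2 (1.18) in the insulin pathway were higher, FOXO1 from below the floor and at 0.38 over all its probe sets.

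Stress response genes downstream of ATF4 did not move together. DDIT3, a transcription factor of that response, had 233.7, 569.7, 196.3 and 216.9, with its other probe set at 1.29. ATF4 itself had 3026, 2270, 3931 and 4006, lowest with MPA. NUPR1 had 511.9, 994.7, 888.5 and 932.6, so that it was nearly as high with guanosine as with MPA, and the lipoprotein receptor VLDLR had 320.9, 155.8, 470.0 and 455.2. The list of 25 had a median of -0.07 with 4 members 1.5-fold higher (16%, against 5.41%) and 1 lower (4%, against 7.52%). Chaperones had 3 of 106 at least 1.5-fold higher (2.83%, against 5.41% of all genes) and 9 lower (8.49%, against 7.52%). The share of lower members was thus near that of all genes. Single members stood out, with the chaperonin subunit CCT6A at -1.04 and HSPD1 at -0.81. The small heat shock protein HSPB3 was at least 2.37-fold higher from below the floor.

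Long noncoding transcripts, snoRNA hosts and antisense genes were higher for 51 of 63 members, where 50.3% of all genes were, at a median of 0.20. GAS6-AS1 had 73.3, 383.6, 81.2 and 81.0, and ZNF436-AS1 had 182.9, 775.3, 270.6 and 273.8. The strand these probe sets read is not given in the sources used here, so an antisense transcript and its partner gene cannot be told apart. The snoRNA host SNHG1 had 435.4, 242.4, 446.5 and 455.8, lower with MPA, and SNHG12 stood at -0.49.

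Motif shares, which did not enter the choice of genes, varied with the difference on the MPA array, though most promoters held no match; no test was made. E2F motifs, searched on both strands as TTTCCCGC, TTTCGCGC, TTTGCCGC or TTTGGCGC, were found in 5.40% of the 9070 promoters available for the genes compared. They were in 16.3% of the 135 promoters of 2-fold lower genes and in 3.87% of the 155 of 2-fold higher genes. Between 1.5-fold and 2-fold the shares were 10.3% for lower and 2.45% for higher genes. CHR motifs, TTTGAA or TTCGAA, were in 21.5% of lower and 11% of higher promoters, with 11.6% in all. The TATA box, TATAAA, ran the other way with 3.70% of lower, 12.9% of higher and 5.84% of all promoters. CCAAT boxes were in 41.5% of lower and 44.5% of higher promoters against 36.7% of all. The motifs were searched separately, so that a base may belong to more than 1 of them, and a match is a string of letters and not a bound site.

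**Figure D3:**
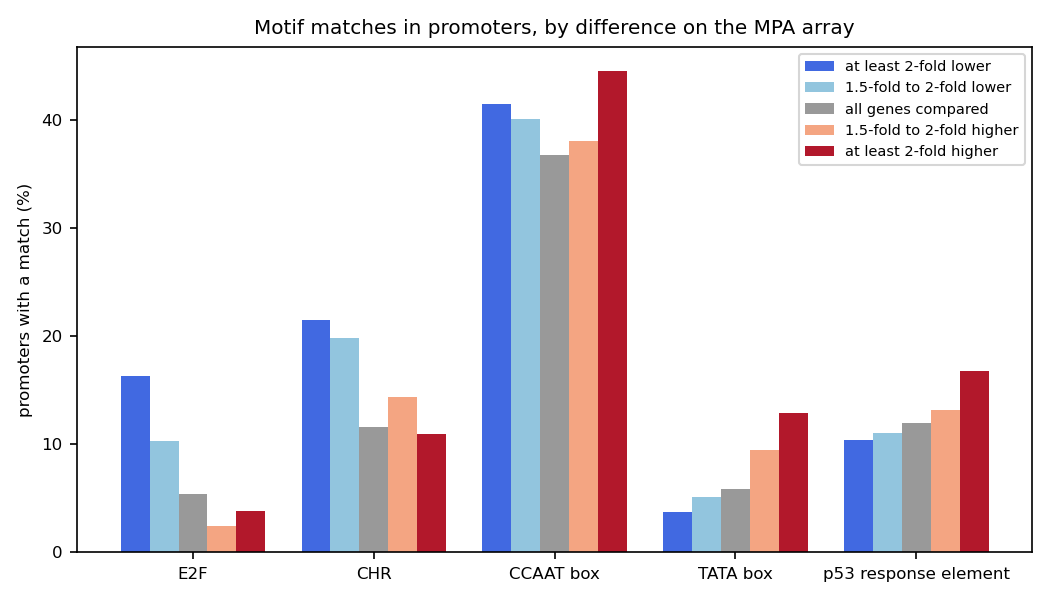
Percentage of promoters with at least 1 match to each of 5 motifs (vertical axis) among genes grouped by their difference on the MPA array, with all genes compared in grey. For E2F the share falls from 16.3% in 2-fold lower genes to 3.87% in 2-fold higher genes, and for the TATA box it runs from 3.70% to 12.9%.

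Within the lists, E2F letters were in 11 of the 21 promoters of helicase and licensing genes (52.4%), GINS2 and CDC6 among them, and members with a match had a median of -1.25 against -0.99 without. CHR letters were in 16 of 34 kinetochore promoters (47.1%), including BUB1B and BUB1, with medians of -0.74 and -0.51. E-boxes, CACGTG, were in 26 of 75 promoters of rRNA processing genes (34.7%), BYSL among them, where 10.4% of all promoters hold one. Here members with the motif had a median of -0.27 and members without it -0.37. The p53 response element as searched was found in 16.8% of promoters of 2-fold higher genes, 10.4% of 2-fold lower genes and 12% of all. It was in 3 of 15 promoters of the p53 arrest and feedback genes and in 1 of 13 (7.69%) of the p53-linked metabolic genes, so most promoters of these lists held no match.

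Gene length and promoter composition varied as well. The median gene span was 21.4 kb for 2-fold higher genes, 35.6 kb for 2-fold lower genes and 29.5 kb for all genes compared, and Spearman's rho between span and difference was -0.13 across 10948 genes, which are not independent. With genes split into 5 equal groups by span, 2.74% of the shortest group were 2-fold higher and 0.868% lower, against 1.32% to 1.64% and 1.19% to 1.87% in the other groups. Promoters under 50% GC made up 19.4% of those of 2-fold higher genes, 5.19% of 2-fold lower genes and 8.34% of all. Among 6603 pairs of neighbouring genes both compared, 2 pairs were both 2-fold higher, ACTA2 with FAS and FAS with CH25H. A further 2 pairs were both lower, HSPA14 with SUV39H2 and NUDT6 with AFG2A, and 2 were opposite, CCDC85B with FOSL1 and FAM228B with TP53I3. CH25H, cholesterol 25-hydroxylase, had 96.4, 288.2, 98.8 and 96.4. Those of these neighbours that lie outside the rule for named genes, CH25H, SUV39H2, NUDT6, AFG2A (-0.24 over all its probe sets), CCDC85B and FAM228B, were chosen after their values were seen.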

How the data were processed

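Each deposited value is the linear intensity of a probe set, computed by the authors with RMA per the labels' file descriptions. RMA corrects background, normalises arrays to 1 distribution and summarises probes, so a change in total mRNA per cell would not be seen. Software, version and settings were not given in the sources used here. Of 49395 probe sets, 44994 had 1 symbol, 1832 several and 2569 were not listed in the platform's gene table; 102 were controls. A gene took its probe set of highest mean over the 4 arrays, and a cross-hybridising one (ending in _x_at) only for 601 genes without another. Median intensity was 63.0, 64.5, 62.5 and 61.8 (control, MPA, guanosine, both). The floor was the median of all non-control values, and precision is limited by the number of arrays. A gene was compared when the brighter of both arrays reached it. Where the dimmer lay below, "at least" gives the fold against the floor.

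Log2 differences were computed with Python 3.11.15 and pandas 2.3.3, and cyclic loess with limma 3.58.1 in R 4.3.3. The counting was tested on simulated data. Named genes are the 30 highest and 30 lowest past 2-fold, the 4 highest and 4 lowest members of each list, a list's best known members where the text turns on them, and IMPDH1, IMPDH2, GMPS, HPRT1, CDKN1A, MDM2, MYC, NPM1 and NCL. Members and the 99 lists were chosen with earlier results of these data known. Alternatives changed the floor, the probe set rule, the scaling, the baseline array and the fold.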

Additional observations from a re-analysis of the deposited data

Results flagged for a closer look

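Probe sets outside the gene comparison also differed between the MPA and the control array. Of 889 probe sets above the floor whose annotation holds several gene symbols, 9 were higher and 12 lower by 2-fold or more, 2.36% in all, with differences on the log2 scale from -1.71 to 1.72. Of 1133 probe sets above the floor that the gene table does not list, 19 were higher and 20 lower by that much, 3.44% in all, from -1.95 to 2.87. They are unnamed here and have no replicate check.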

How the results depend on the processing

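The count of 2-fold higher genes, 189, became 121 with the floor at a signal of 244 (its 75th percentile), 124 with the median over a gene's probe sets, 344 when centred on the poly-A controls and 592 at 1.5-fold. The count of 2-fold lower genes, 156, became 99 with the median over probe sets, 57 with poly-A centring and 824 at 1.5-fold. Other alternatives kept both counts within 1.5 times. The higher floor and the wider fold change which genes are counted by construction; for the others the cause was not tested. The 60 highest and lowest genes kept their sign in 527 of 527 values, 507 of them still past 2-fold. These genes were picked as the extremes of the same difference. The settings that change only the floor, or keep only genes whose probe sets agree in direction, return the same value for a gene they keep. Much of this count was therefore fixed in advance. For lists of at least 10 genes with a median of 0.20 or more in size, 260 of 261 values kept their sign. The median of the translation factors turned to 0.040 with poly-A centring. These lists were kept for the size of the same median, and poly-A centring adds 0.24 to every gene. Most of these signs were therefore fixed in advance too, and smaller medians left out of this count did turn, as given above. No paired analysis was possible because there is 1 array for each condition and the labels give the conditions no shared replicate numbers; for the same reason no replicate could be left out. Dim genes are limited by signal over background, and measured folds from below the floor have no order.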
